A study of Mus musculus with 9 samples.

Results

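Lewis lung carcinoma cells of the LLC1 line, a mouse tumour line, were compared between cultures with T cells labelled Th9 and cultures with T cells labelled Th0. The comparison uses 6 of the 9 libraries of the series, 3 for each label, and 14475 of the 18816 genes of the table, those whose values averaged 10 or more across these libraries. In both groups the tumour cells had direct contact for 24 h with T cell subsets generated artificially, at 1 T cell per LLC1 cell. CD4+ cells were then taken out by sorting, and the RNA came from what was left. By the labels the groups differ only in the T cell subset. LLC1 cells alone and T cells alone were not analysed here. How the subsets were made and whether T cells without CD4 were present is not stated in the labels. Nor do the labels tell whether replicates were cultured separately, so the tests below measure variation between libraries that may be technical. The title of the series concerns epithelial-mesenchymal transition (EMT), the change of epithelial cells towards a mesenchymal state.

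Helper T cells act on neighbouring cells through cytokines and surface ligands. Th9 cells are the subset named for interleukin 9, and Th0 cells are activated helper cells that were not polarised. In a cell that receives inflammatory cytokines, NF-kB enters the nucleus and switches on chemokine genes together with genes for its own inhibitors. Lack of amino acids and other stresses raise translation of ATF4, a transcription factor that turns on genes for amino acid uptake and synthesis. A sort that removes cells by CD4 leaves behind T cells that carry little or no CD4, so RNA of T cells and RNA of LLC1 cells can be mixed in these libraries.

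Values are read counts per gene that the authors normalized and rounded, called normalized counts here. The libraries held about 12719345 to 15337299 assigned reads. The first principal component held 64.1% of the variance and parted the groups, and the second (17.9%) set Th0 replicate 1 apart. In that library 31.1% of the values lay in mt-Rnr1, mt-Rnr2 and Gm26917, 3 non-coding RNA genes, against 14.9% to 18.6% in the others, and it differed from the other Th0 libraries by a chi-square per degree of freedom of 83.3 and 95.1, where all other pairs within a group had 2.3 to 7.89. A log2 fold change is the mean of log2(normalized count + 1) with Th9 cells minus that with Th0 cells, and a gene is called higher or lower at an adjusted p under 0.05 (limma-trend, Benjamini-Hochberg over all 14475 genes, two-sided).

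With Th9 cells 1937 genes were higher (13.4% of those tested) and 1716 lower (11.9%), and the median log2 fold change of all genes was -0.01. Of these, 513 were higher by more than 1 on the log2 scale and 260 were lower by more than 1. T cell genes, chemokine genes and the genes of NF-kB and ATF4 were among those that rose, and collagen genes, Thbs1 and Ptn among those that fell. Counts of called genes in the lists below stand against the shares of 13.4% higher and 11.9% lower over all genes. Each of 14 alternative settings (all but the test against a minimum fold change) kept the calls of 965 of the higher and 598 of the lower genes. Scaling every library to the same total moved the median of all genes up by 0.11 and gave 2245 higher and 795 lower genes, so that the share of calls that were higher went from 53.02% to 73.85% (62.05% with the 3 RNA genes left out of the total). Without Th0 replicate 1 the lower genes numbered 2747, without Th0 replicate 3 1066, and without Th9 replicate 1 or 2 the higher genes numbered 1042 or 1152 and the lower ones 847 or 943.

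**Figure D1:**
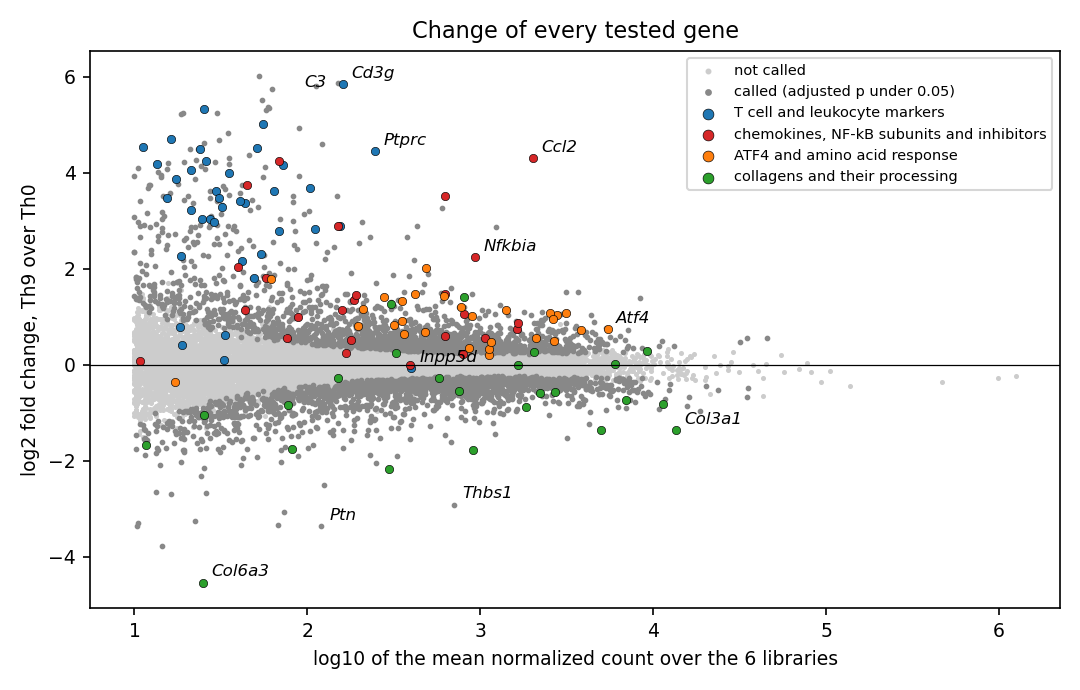
Log2 fold change (Th9 over Th0, vertical axis) against log10 of the mean normalized count over the 6 libraries (horizontal axis) for 14475 genes, with called genes in dark grey and 4 groups of listed genes in colour. Ccl2, C3 and Cd3g lie far above 0, and Col6a3, Ptn and Thbs1 far below.

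Promoter sequences are shown first for 10 genes that were called higher, because NF-kB, ATF4 and AP-1 are known as regulators of such genes. The 10 genes were picked by hand, and a match in the bases shown was a condition for showing them. The sequences are the 120 bases before the gene's start in RefSeq (GRCm38.p6), written 5′ to 3′ on the gene's strand, with matches to a motif in capitals. The 250 bases before each start were searched on both strands, and overlapping matches were merged. Shares over all promoters count entries, while a listed gene counted if any of its entries held a match. The 2 are thus not in the same unit.

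For NF-kB, the NF-kB consensus of 10 bases was searched, which stands in 3.9% of the 32851 promoters of the table. Cxcl1, a chemokine, is at chr5:90891125-90891244 (plus strand), Nfkbia, the inhibitor IkB-alpha, at chr12:55492648-55492767 (minus strand), Nfkb2, the p100 subunit, at chr19:46304617-46304736 (plus strand) and Tnip1, a partner of the inhibitor A20, at chr11:54962941-54963060 (minus strand).
Cxcl1: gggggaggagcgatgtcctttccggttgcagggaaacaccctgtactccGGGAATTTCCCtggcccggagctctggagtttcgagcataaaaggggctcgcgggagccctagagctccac
Nfkbia: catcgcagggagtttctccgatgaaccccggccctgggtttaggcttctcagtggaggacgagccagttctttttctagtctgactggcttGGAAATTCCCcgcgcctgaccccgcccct
Nfkb2: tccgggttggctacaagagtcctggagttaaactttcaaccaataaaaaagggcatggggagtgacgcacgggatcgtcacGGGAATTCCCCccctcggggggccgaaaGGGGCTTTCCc
Tnip1: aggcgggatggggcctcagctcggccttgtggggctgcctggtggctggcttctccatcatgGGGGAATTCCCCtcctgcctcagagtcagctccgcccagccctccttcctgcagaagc
Of 18 tested genes for NF-kB subunits and feedback inhibitors 14 had an entry, and 7 of these held a match: Nfkb2, Rel, Nfkbia, Nfkbie, Tnfaip3, Tnip1 and Cyld. Of 7 tested chemokine ligands only 2 had an entry, and 1 of these, Cxcl1, held a match.

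For ATF4, the composite element TGATGNAA was searched, which stands in 3.45% of the promoters. Slc7a11, the cystine transporter, is at chr3:50443614-50443733, Nupr1, a small stress-response protein, at chr7:126625471-126625590 and Atf3, a transcription factor of stressed cells, at chr1:191183334-191183453, all on the minus strand.
Slc7a11: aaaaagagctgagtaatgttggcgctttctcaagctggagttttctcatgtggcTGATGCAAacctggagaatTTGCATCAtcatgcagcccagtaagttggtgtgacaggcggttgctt
Nupr1: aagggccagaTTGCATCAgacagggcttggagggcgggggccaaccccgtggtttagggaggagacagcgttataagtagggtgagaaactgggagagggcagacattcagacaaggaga
Atf3: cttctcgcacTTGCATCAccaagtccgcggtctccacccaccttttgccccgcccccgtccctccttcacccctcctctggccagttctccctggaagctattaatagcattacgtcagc
Slc7a11 held the element in both orientations, the matches starting 66 and 47 bases before the start. Of the 28 genes of the ATF4 list below 24 had an entry, and 4 of these (Atf3, Asns, Nupr1 and Vldlr) held a match.

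For AP-1, the site TGANTCA was searched, which stands in 6.75% of the promoters. Mmp3, Mmp10 and Mmp13, matrix metalloproteinases that lie near each other on chromosome 9, are at chr9:7445702-7445821, chr9:7502222-7502341 and chr9:7272394-7272513, all on the plus strand.
Mmp3: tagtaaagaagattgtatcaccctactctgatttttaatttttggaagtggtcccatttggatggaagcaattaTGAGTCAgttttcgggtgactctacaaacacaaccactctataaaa
Mmp10: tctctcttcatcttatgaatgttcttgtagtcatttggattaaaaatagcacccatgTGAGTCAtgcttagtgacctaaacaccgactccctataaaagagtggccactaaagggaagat
Mmp13: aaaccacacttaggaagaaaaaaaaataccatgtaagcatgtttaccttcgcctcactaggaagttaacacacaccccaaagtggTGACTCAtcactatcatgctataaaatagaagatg
Each of the 3 held 1 match, starting 46, 63 and 35 bases before the start. A match says only that these letters are present.

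T cell transcripts were present in all Th9 libraries and were higher there than in the Th0 libraries. Cd3g, a chain of the CD3 complex of the T cell receptor, was at 8, 5 and 2 normalized counts with Th0 cells and at 352, 346 and 254 with Th9 cells. All 4 tested genes of the T cell receptor and CD3 list (Cd3d, Cd3e, Cd3g and Cd247) were higher, as were 13 of 14 T cell surface and signalling genes and 16 of 20 genes common to white blood cells, and none was lower. These counts describe the members that could be tested and are no support. Of the 4, 14 and 20 tested, 3, 12 and 10 had a Th0 mean under 10 and passed the filter only through the Th9 libraries, so they had to differ. Of the others 1 of 1, 1 of 2 and 6 of 10 were higher. All members of the first 2 lists that have a row, tested or not, summed to 177, 107 and 80 in the Th0 libraries and to 1562, 1360 and 1112 in the Th9 libraries, an 11.1-fold difference of means (14.4-fold without Th0 replicate 1). The lowest Th9 sum was above the highest Th0 sum. Fewer T cells and less RNA per T cell cannot be told apart in such bulk libraries.

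Cd4, the receptor used for the sort, was at 10, 8 and 18 with Th0 cells and 23, 23 and 17 with Th9 cells, and was not called (log2 fold change 0.82, adjusted p = 0.114 by limma-trend). Trdc, the constant region of the delta chain of the gamma delta T cell receptor, was at 2, 3 and 0 against 145, 101 and 77, and Tcrg-C2, a gamma chain constant region, was listed at 0 in all Th0 libraries and at 55, 32 and 28 with Th9 cells. The 4 genes of the gamma delta list that were called higher all passed the filter only through the Th9 libraries, and the fifth that was tested, Sox13, was not called. Klrk1 and Klrd1, receptors of natural killer cells and of some T cells, had log2 fold changes of 4.02 and 3.69 and passed the filter in the same way. Il2ra, the alpha chain of the interleukin 2 receptor, was at 5, 4 and 1 against 256, 233 and 174, and Gzmb, the cytotoxic protease granzyme B, at 10, 3 and 3 against 193, 199 and 130. Both genes are known from activated T cells and passed the filter only through the Th9 libraries. A lack of overlap was a condition for picking them and is no result. Of 9 tested genes for helper T cell effectors and activation 5 were higher, all with a Th0 mean under 10. Of the other 4 none was called. Il9, Il17a and Ifng were not analysed here. Il4 was at 15 to 23 in the Th0 and 16 to 23 in the Th9 libraries.

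Of 4 tested genes for B and plasma cells none was higher, and Igkc, the kappa light chain, went from 46, 15 and 11 to 1, 5 and 2 (log2 fold change -2.66, adjusted p = 0.0065 by limma-trend). Ighm, the heavy chain of immunoglobulin M, was at 191 in Th0 replicate 1 against 48 to 75 in the other 5 libraries. Lyz2, a lysozyme of myeloid cells, went from 33, 15 and 11 to 0, 2 and 1. Igkc and Lyz2 had a Th9 mean under 10 and passed the filter only through the Th0 libraries, so they had to differ. The summed myeloid list was at 175 to 336 in the Th0 and 213 to 269 in the Th9 libraries, and the summed mast cell list at 1 to 14 in all 6.

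Among the Th9 libraries themselves, T cell transcripts were lower in replicate 3 than in replicate 1. For 21 listed T cell and white blood cell markers that were called higher with a Th9 mean of at least 50, the value in replicate 3 over that in replicate 1 ran from 0.493 to 0.86 with a median of 0.702. Over the 9053 tested genes with a Th9 mean of at least 100 the median of this ratio was 1.004, and 10.5% of them lay at or under 0.86. This ratio and the cutoffs used with it were chosen after the values were seen, and it describes 2 libraries without a test. It uses the whole value and not the rise over the Th0 level. A gene with a sizeable Th0 level can thus lie above the marker range though its rise alone would not. This matters most where the fold change is small. The 95% intervals given with it cover counting error only (exact binomial).

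The ratio parted the genes with the largest rises. There were 52 called genes with a log2 fold change over 2 and a Th9 mean of at least 100, 9 of them on the marker lists. Of the 43 others 22 lay at or under 0.86. Among them were genes known from lymphocytes, such as Trdc (0.531, 95% interval 0.398 to 0.697), Thy1, a surface protein of T cells (0.57), Satb1, a chromatin organiser of developing T cells (0.58), Gimap4, a GTPase of lymphocytes (0.58), Lef1, a transcription factor of T cells and of Wnt signalling (0.6633), Gzmb (0.674), Il2ra (0.68) and P2ry10, a lymphocyte receptor (0.753). The 22 also held Nfkbia (0.784, 0.731 to 0.841), Traf1, a signalling adaptor of tumour necrosis factor receptors (0.794, 0.614 to 1.02) and Il33, a cytokine of barrier and stromal cells (0.797, 0.604 to 1.04).

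The other 21 genes lay above 0.86 and thus above every marker in that set. C3, the central complement component, was at 258, 293 and 332 in the Th9 libraries (ratio 1.29, 1.1 to 1.51) and at 6, 2 and 5 with Th0 cells. Cxcl1 was at 977, 1170 and 1294 (1.32, 1.22 to 1.44), Cxcl5, also a chemokine for neutrophils, at 222, 278 and 297 (1.34, 1.13 to 1.59) and Mmp13 at 235, 298 and 286 (1.22, 1.03 to 1.45). In these 4 genes the Th9 library with the lowest T cell sum held a higher value than the one with the highest. Ccl2 had a ratio of 0.903 (0.863 to 0.944), Slc7a11 of 0.918 (0.867 to 0.972), Grem1, a secreted antagonist of bone morphogenetic proteins, of 0.965 (0.875 to 1.07), Mmp3 of 1.05 (0.963 to 1.14) and Sele, the adhesion molecule E-selectin, of 1.35 (1.03 to 1.78). Lef1 and Sele were picked for mention after their values were seen. A low ratio was not limited to T cell genes. Psat1, an enzyme of serine synthesis, was at 1900, 2148 and 1933 with Th0 cells and had a ratio of 0.69 (0.661 to 0.72), and Pcolce, a protein of collagen processing that fell, had 0.769 (0.72 to 0.822).

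**Figure D2:**
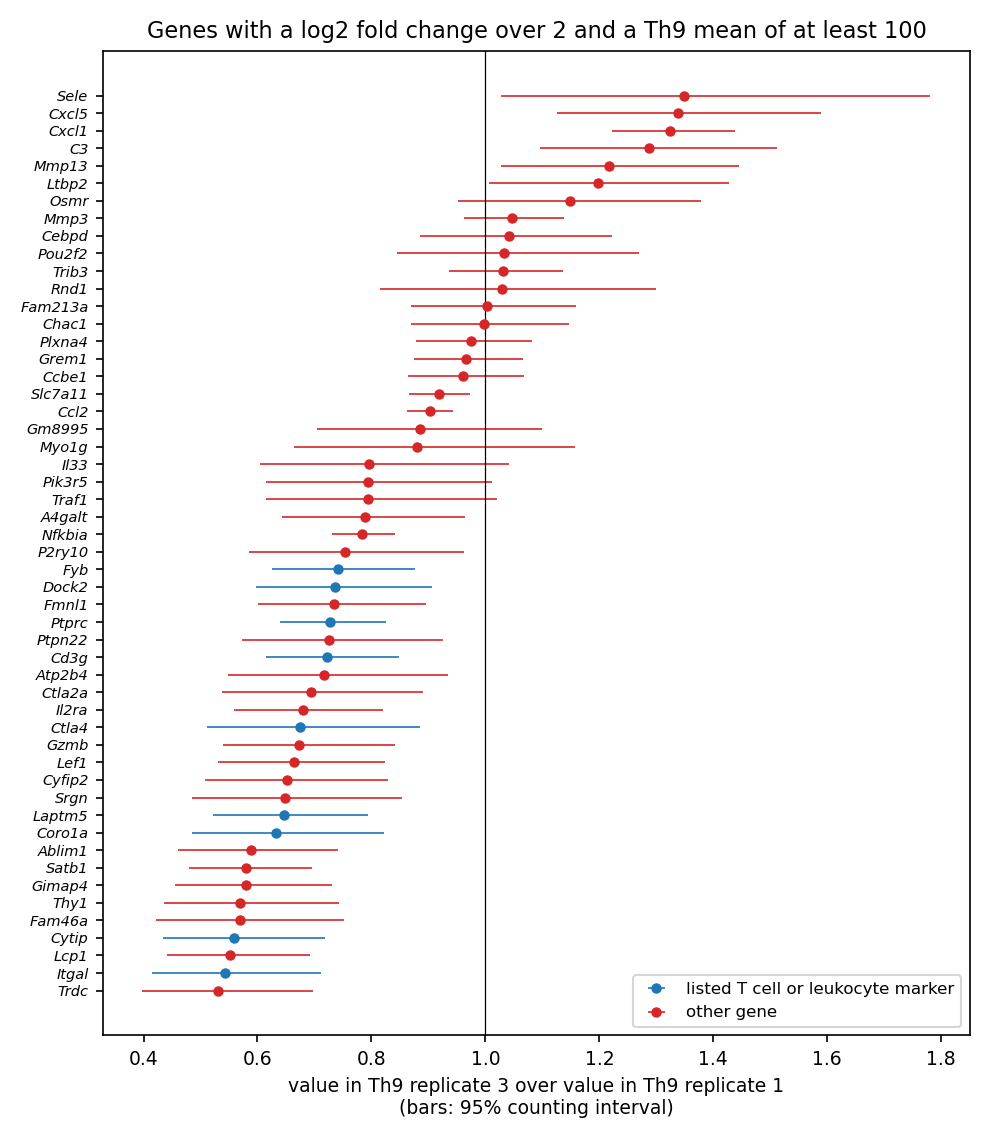
The value in Th9 replicate 3 over the value in Th9 replicate 1 (horizontal axis, bars are 95% counting intervals) for the 52 called genes with a log2 fold change over 2 and a Th9 mean of at least 100. Listed T cell and white blood cell markers (blue) lie between 0.543 and 0.74, and C3, Cxcl1, Cxcl5, Mmp13 and Sele lie above 1.

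The size of a rise was set against the CD3 genes as well, per kb of exon length. The largest rise among the T cell receptor and CD3 genes was that of Cd3g, by 95.5 normalized counts per kb, and the median was 16.25. None of the 47 marker genes with a row rose by more than Cd3g on this scale, whereas 253 of the 1937 genes called higher did. Genes of T cells outside these lists did too, such as Gzmb, by 117.5 normalized counts per kb, and Tcf7, a transcription factor of T cells, by 101.5. Of 1329 called genes with a Th0 mean over 100, 241 (18.1%) exceeded it, of 403 with a Th0 mean of 10 to 100, 9, and of 205 with a lower Th0 mean, 3. The last group could pass the filter only by being high with Th9 cells. Ccl2 rose by 3221 normalized counts per kb, 33.7 times the rise of Cd3g, Cxcl1 by 559 (5.85 times) and Mmp3 by 542 (5.67 times), and C3 by 56.4 (0.59 times). Transcripts more abundant than those of CD3 exist in T cells, so no multiple marks a limit. How much of the rise of any 1 gene was RNA of T cells was not tested. For falls the arithmetic differs. Added T cell reads cannot lower a gene, except through the scaling by 1 factor per library, which lowers all other genes by a common factor. RNA of other cells that was higher with Th0 cells would also appear as a fall, and Igkc and Lyz2 above were lower with Th9 cells. Both passed the filter only through the Th0 libraries. Which falls were changes of LLC1 cells was not tested.

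Of 7 tested chemokine ligands 5 were called higher in each of the alternatives that tested them, and none was lower. Ccl7 passed the filter only through the Th9 libraries, and of the other 6 tested 4 were higher. Ccl2, which draws monocytes (ENSMUSG00000035385, chromosome 11, 82035571 to 82037453), was at 193, 231 and 165 with Th0 cells and at 3879, 4203 and 3502 with Th9 cells. The log2 fold change was 4.30 (SE 0.12, adjusted p = 1.1e-09 by limma-trend). The groups did not overlap, which was a condition of its choice and is no result. Its neighbour Ccl7, with a similar role, went from 5, 5 and 6 to 78, 91 and 82. The neutrophil chemokine Cxcl1 (chromosome 5, 90891241 to 90893115) was at 83, 117 and 99 with Th0 cells (log2 fold change 3.52), Cxcl5 at 28, 47 and 32 (2.89) and Cxcl16, a membrane-bound chemokine, at 10, 19 and 17 against 68, 51 and 74 (2.03). Ccl5, a chemokine that T cells make, was between 8 and 16 in all 6 libraries (0.09, adjusted p = 0.901), and Cx3cl1 was not called (0.24, adjusted p = 0.148).

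**Figure D3:**
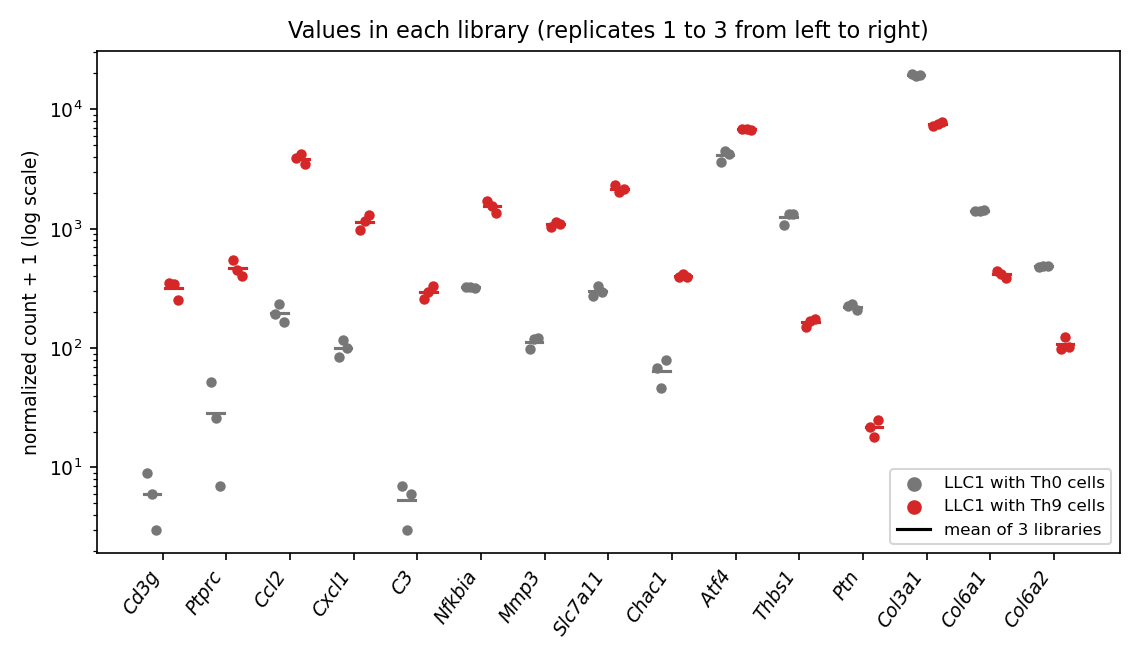
Normalized count + 1 (log axis) of 15 genes in the 3 Th0 libraries (grey) and the 3 Th9 libraries (red), with a line at the mean of each group. Thbs1, Ptn, Col3a1, Col6a1 and Col6a2 are lower with Th9 cells. The groups do not overlap, which was a condition for picking most of these genes and is no result.

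Genes of NF-kB and its inhibitors rose together. Of the 18 tested, 16 were called higher and none lower, with a median of 1.02, and 15 of them kept the call in every alternative. Traf1 passed the filter only through the Th9 libraries, and of the 17 others tested 15 were higher. Among the subunits, Nfkb2 went from 1094, 1217 and 1175 to 2062, 1923 and 2425 (log2 fold change 0.87), Relb from 110, 103 and 100 to 306, 261 and 236 (1.34), Rel rose by 1.15 and Nfkb1 by 0.74. Rela, the subunit of the classical dimer, was not called (0.22, adjusted p = 0.0654), but was called higher with array weights (adjusted p = 0.0191). Nfkbia was at 322, 324 and 321 against 1720, 1565 and 1349. Tnfaip3, the ubiquitin-editing inhibitor A20, went from 101, 98 and 105 to 315, 269 and 253 (1.45), and Ikbke, an inducible IkB kinase, from 377, 285 and 329 to 793, 939 and 1021 (1.47). T cells use the same genes, and of those named Nfkbia, Relb (0.771), Rel (0.751) and Tnfaip3 (0.803) had ratios of Th9 replicate 3 to 1 within the range of the T cell markers, while Nfkb2 (1.18), Ikbke (1.29) and Nfkbie (1.38), a further inhibitor, did not. What T cell RNA added to these rises was not tested.

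Of 11 complement and acute phase genes with a row 7 were tested. C3, Lcn2 and Saa3 passed the filter only through the Th9 libraries, and of the other 4 Cp and C1ra were higher and none lower. Lcn2, the iron-siderophore carrier lipocalin 2, went from 2, 1 and 1 to 49, 90 and 43, Saa3, an acute phase protein, from 0, 0 and 1 to 30, 18 and 11 (ratio of Th9 replicate 3 to 1 of 0.367), and Cp, the copper oxidase ceruloplasmin, from 753, 951 and 796 to 1314, 1417 and 1589 (log2 fold change 0.79, adjusted p = 2.0e-04). C1ra (0.40, adjusted p = 0.0494), kept its call in 6 of 14 alternatives. Ptgs2, the prostaglandin synthase COX-2, went from 1370, 1817 and 1709 to 4717, 4429 and 4716 (1.51), and Cebpd, a transcription factor of the acute phase, from 47, 74 and 52 to 286, 431 and 298 (2.53). Cebpd and Ptgs2 stand on none of the lists, and Cebpd was picked after its values were seen.

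Of 17 tested cytokines and growth factors 10 were higher and none lower (median 0.74), and 8 kept the call in every alternative. Il33, described below, passed the filter only through the Th9 libraries, and of the 16 others tested 9 were higher. Lif, which signals through gp130, went from 189, 137 and 145 to 371, 361 and 346 (log2 fold change 1.20), and Il11, of the same receptor family, from 51, 49 and 48 to 151, 154 and 122 (adjusted p = 3.7e-05). Osmr, the oncostatin M receptor, also a partner of gp130, went from 36, 45 and 45 to 208, 209 and 239 (2.36). Il33 was at 5, 6 and 7 against 118, 101 and 94 (3.92), and its receptor Il1rl1 at 251, 285 and 265 against 657, 582 and 568 (1.17). The ratios of Th9 replicate 3 to 1 were 0.808 for Il11 and 0.797 for Il33, within the range of the T cell markers, and 0.933 for Lif and 1.15 for Osmr. Csf1, the growth factor of macrophages, rose by 0.88, Vegfa, which drives vessel growth, by 0.74 and Hbegf, a ligand of the EGF receptor, by 1.86. The interferon-gamma receptor chains Ifngr1 and Ifngr2 rose by 0.81 and 0.76. Of 26 tested genes for JAK-STAT receptors and feedback, Osmr, Ifngr1 and Ifngr2 among them, 14 were higher and 2 lower. Of the 22 with a Th0 mean of at least 10, 11 were higher and 2 lower. Over the alternatives 9 to 17 of the list were higher and 0 to 4 lower.

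Genes of ATF4 and the amino acid response rose almost as a whole. Of 28 tested 26 were higher and none lower, with a median of 0.94 against -0.01 over all genes, and 24 kept the call in every alternative. Atf4 itself went from 3611, 4463 and 4253 to 6842, 6909 and 6744 (log2 fold change 0.74). Trib3, a pseudokinase induced by ATF4, was at 179, 199 and 203 against 777, 768 and 801 (2.01, adjusted p = 6.5e-08 by limma-trend). Chac1, which breaks down glutathione and is known as an ATF4 target, went from 67, 45 and 79 to 393, 413 and 392 (2.67). The groups did not overlap in any of these 3 genes, which for Trib3 was a condition of its choice. The enzymes of amino acid synthesis Asns (asparagine, 1.04), Psat1 (serine, 1.07), Cth (cysteine, 1.48) and Mthfd2 (mitochondrial folate, 1.07) rose, as did the amino acid transporters Slc7a5 (0.96), Slc1a4 (1.21) and Slc1a5 (1.14). Sesn2, a sensor of leucine, was at 346, 341 and 316 against 929, 895 and 872 (1.42). Cbs, an enzyme before Cth in cysteine synthesis, was at 16, 19 and 23 against 17, 17 and 11 and was not called.

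Slc7a11, which takes up cystine in exchange for glutamate, was at 270, 328 and 294 with Th0 cells and at 2323, 2039 and 2133 with Th9 cells (log2 fold change 2.86, SE 0.09, adjusted p = 3.5e-09). Its partner chain Slc3a2 went from 1458, 1631 and 1670 to 3091, 3065 and 2870 (0.92). Of the 26 tested genes of cystine uptake, glutathione and NRF2, 11 were higher and 3 lower (median 0.22). The share that was lower is near the 11.9% of all genes. Without Th9 replicate 1, 7 were higher and 1 lower (1 lower also without Th0 replicate 3 or Th9 replicate 2, none at the same total per library). The NRF2 gene Nfe2l2 (0.11, adjusted p = 0.494) and its target Nqo1 (0.20, adjusted p = 0.261) were not called. Gclc, the rate-limiting enzyme of glutathione synthesis, rose by 0.36, and Hmox1, heme oxygenase 1, by 0.76. Gsr, the glutathione reductase, was not called (adjusted p = 0.975).

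Of 22 tested genes for chaperones of the endoplasmic reticulum and the unfolded protein response, 2 were higher and 10 lower (median -0.28). With the same total per library 4 were lower, and without Th0 replicate 2, Th0 replicate 3 or Th9 replicate 1 there were 6, 6 and 5. Herpud1, of protein degradation at the reticulum, went from 171, 180 and 170 to 423, 470 and 405 (log2 fold change 1.31), and the sensor Atf6 rose by 0.49. Calr, the chaperone calreticulin, fell from 10823, 16903 and 16178 to 8475, 8943 and 8964, with the lowest Th0 value in replicate 1, and Manf, Creld2 and Dnajc3, chaperone genes of the reticulum, fell by 0.58, 0.64 and 0.57 on the log2 scale.

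**Figure D4:**
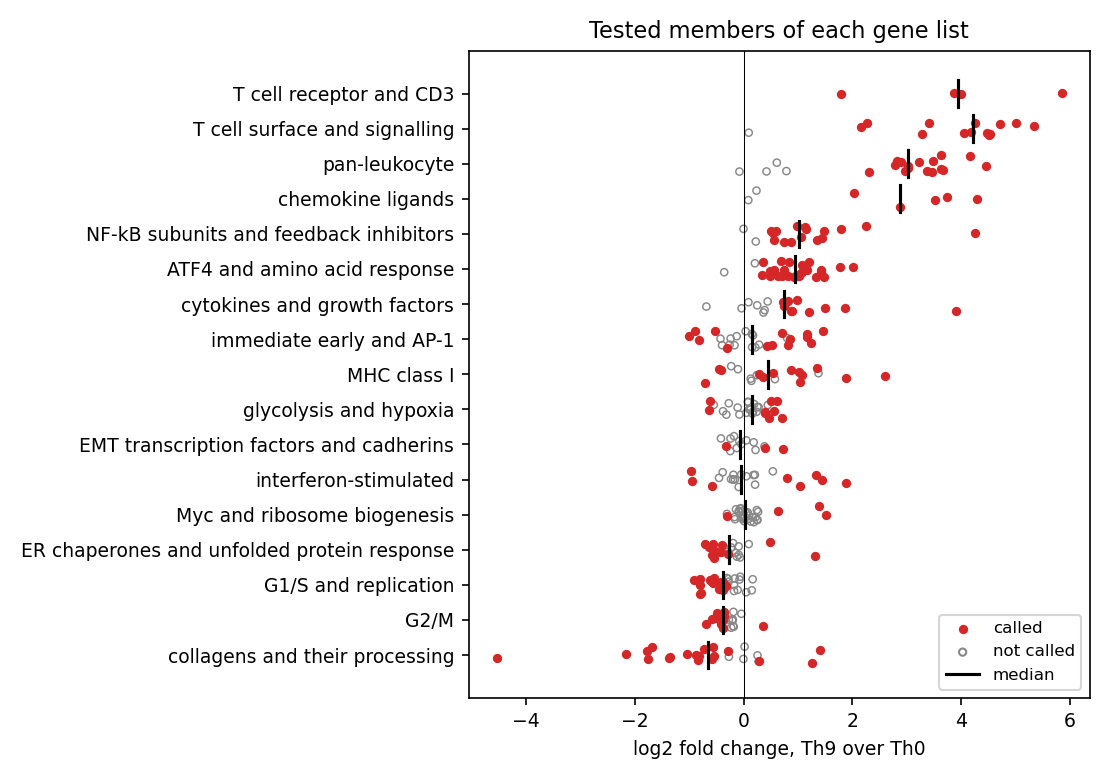
Log2 fold change (Th9 over Th0) of every tested member of 17 gene lists, with filled points for called genes, open points for genes not called, and a line at each list's median. Nearly all points of the ATF4 and NF-kB lists lie above 0, and most collagen and cell cycle genes lie below.

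Most collagen genes fell. Of 24 tested genes for collagens and their processing 16 were lower and 3 higher, with a median of -0.66, and 14 of the lower ones kept the call in every alternative. Of the 24, 2 had a Th9 mean under 10, Col6a3 among them. These passed the filter only through the Th0 libraries, so they had to differ. The sum of the list was 78142 to 82875 in the Th0 and 52356 to 53543 in the Th9 libraries. Of the chains of type VI collagen, a beaded filament around cells, Col6a1 went from 1397, 1398 and 1442 to 438, 419 and 384 (log2 fold change -1.77), its neighbour on chromosome 10 Col6a2 from 477, 483 and 489 to 98, 122 and 101 (-2.17) and Col6a3 from 63, 38 and 44 to 0, 2 and 2 (-4.54). The fibrillar Col3a1 went from 19964, 18951 and 19426 to 7214, 7539 and 7864, and Col5a1 from 7647, 6564 and 7431 to 2756, 2725 and 2934. The basement membrane collagens Col4a1 and Col4a2 fell by 0.81 and 0.73 on the log2 scale. The crosslinking enzyme Loxl2 (-1.76) and the procollagen protease Bmp1 (-0.88) were lower too. Col8a1, a short-chain collagen, went the other way, from 349, 479 and 496 to 1077, 1141 and 1257 (adjusted p = 1.1e-05), as did Col5a3 (1.26).

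Thbs1, the matricellular protein thrombospondin 1 (chromosome 2, 118111876 to 118127133), went from 1069, 1341 and 1329 to 150, 167 and 176 (log2 fold change -2.91, SE 0.11, adjusted p = 1.1e-08 by limma-trend). Every Th9 value lay below every Th0 value, which was a condition of its choice and is no result. Ptn, the growth factor pleiotrophin, went from 225, 231 and 206 to 21, 17 and 24, a fall by 3.37 on the log2 scale. Scara5, a ferritin receptor, was at 121, 142 and 130 against 17, 17 and 11 and Syt13, a synaptotagmin, at 113, 120 and 136 against 19, 8 and 9. Stc1, the secreted hormone stanniocalcin 1, fell by 2.04 and Enpp2, autotaxin, which makes lysophosphatidic acid, by 1.87. Cdon, a coreceptor of Hedgehog signalling, went from 1010, 1042 and 1025 to 336, 367 and 306, and Apcdd1, an inhibitor of Wnt signalling, from 4265, 4797 and 5092 to 1611, 1744 and 1577. Acta2, smooth muscle actin, fell by 1.25 and Krt8, a keratin of simple epithelia, by 0.97.

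Some proteases of the matrix rose and others fell. Mmp3, stromelysin 1, was at 97, 119 and 121 against 1042, 1133 and 1091 (log2 fold change 3.27, adjusted p = 3.5e-09 by limma-trend), Mmp13, a collagenase, at 23, 32 and 16 with Th0 cells (3.52), and Mmp10, stromelysin 2, at 5, 3 and 0 against 59, 40 and 46. Mmp9, a gelatinase, was at 1, 0 and 1 against 62, 61 and 56. The groups did not overlap in these 4 genes, which for Mmp3 and Mmp13 was a condition of their choice. Mmp9 and Mmp10 passed the filter only through the Th9 libraries. Of 20 tested proteases and inhibitors 11 were higher and 3 lower (9 and 3 of the 18 with a Th0 mean of at least 10), with 7 and 6 higher without Th9 replicate 1 and 2. Of the 20, 1 had a Th9 mean under 10 and passed the filter only through the Th0 libraries. Plat, the tissue plasminogen activator, fell from 360, 408 and 406 to 126, 150 and 129, and Plau, urokinase, was not called (-0.29, adjusted p = 0.0669), but was called lower without Th0 replicate 1 (adjusted p = 0.0136).

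The share of EMT genes that were called was near that of all genes (13.4% higher and 11.9% lower), so the counts say nothing particular about them. Of 14 tested transcription factors, cadherins and related genes 2 were higher, Snai2 (379, 546 and 421 against 726, 691 and 789; log2 fold change 0.73) and Zeb2 (0.40), and 1 lower, Tcf4. Tcf4 (-0.32, adjusted p = 0.0192) was not called with the same total per library or without Th0 replicate 3 or Th9 replicate 1 or 2, where the list had 0 lower, and without Th0 replicate 1 the list had 6 lower. Vim (-0.08, adjusted p = 0.812), Cdh2 (-0.13, adjusted p = 0.542) and Fn1 (-0.25, adjusted p = 0.16) were not called. Without Th0 replicate 1, the library that stands apart, all 3 were called lower, at log2 fold changes of -0.25 for Vim (adjusted p = 0.00853), -0.31 for Cdh2 (adjusted p = 0.0109) and -0.29 for Fn1 (adjusted p = 0.00205). Cdh2 and Fn1 were also called lower with array weights. Cdh1, the epithelial cadherin, was not analysed here. Array weights, which give each library its own weight, called 4 genes of the list higher and 5 lower, and the median of -0.06 was 0.05 at the same total per library. Of 26 genes of TGF-beta and BMP signalling 8 were higher and 5 lower, against the same 13.4% and 11.9% of all genes. Of the 26, 1 had a Th9 mean under 10 and passed the filter only through the Th0 libraries. There were 5 higher without Th9 replicate 1 or 3, and 8 lower without Th0 replicate 1. Tgfb1, the ligand, was at 209, 195 and 158 against 430, 496 and 341 (log2 fold change 1.16, ratio of Th9 replicate 3 to 1 of 0.793). Grem1, which is not on the list, was at 94, 112 and 100 against 777, 750 and 750 (2.89). Ltbp2, a matrix protein related to the binders of latent TGF-beta, was at 59, 31 and 42 against 227, 219 and 272 (2.46), and Tgfbi, a TGF-beta target, at 116, 154 and 147 against 41, 29 and 40 (-1.90). Tgfbr2, the type II receptor, fell by 0.68.

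Cell cycle genes were lower in part. Of 28 tested genes of G1/S and replication 16 were lower and none higher (median -0.38), with 7 lower at the same total per library. Tyms, thymidylate synthase, went from 762, 669 and 702 to 410, 406 and 423 (log2 fold change -0.78), Lig1, the replicative DNA ligase, fell by 0.80 and Ccne2, a cyclin of S phase entry, by 0.92. Of 25 genes of G2/M 15 were lower and 1 (Bub1, a mitotic checkpoint kinase) higher, but only 1 was lower at the same total per library, and 8 and 5 without Th0 replicate 2 and 3, and 3, 6 and 9 without Th9 replicate 1, 2 and 3. Bub1 lost its call without Th0 replicate 3 or Th9 replicate 1 or 2. Birc5, survivin, kept its call in each of these, from 1039, 1260 and 1180 to 705, 716 and 739. Myc, a driver of growth, went the other way, from 4288, 4766 and 4837 to 12825, 13481 and 10269 (1.39, ratio of Th9 replicate 3 to 1 of 0.801), and Odc1, the first enzyme of polyamine synthesis, from 1750, 2011 and 1948 to 5250, 5601 and 5435 (1.51). Of the 32 genes of Myc and ribosome biogenesis these and Polr1b, a subunit of RNA polymerase I, were the 3 that were higher. That share is not above the 13.4% of all genes. With array weights 7 were higher, and 7 when libraries were brought to 1 total that leaves out the 3 RNA genes. Of 27 tested immediate early and AP-1 genes 9 were higher and 5 lower, with 8 to 10 higher and 1 to 10 lower over the alternatives. Of these, Egr1, an immediate early transcription factor, fell from 1699, 1734 and 1763 to 821, 936 and 840. Fosl1, a partner of Jun proteins in AP-1, rose from 1586, 1445 and 1296 to 2766, 2753 and 2352.

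Genes of antigen presentation rose in part. Of 20 tested MHC class I genes 10 were higher and 3 lower, with a median of 0.46. Only 1 was lower at the same total per library or when any library other than Th0 replicate 1 was left out. Of the 10, 2 had a Th0 mean under 10 and passed the filter only through the Th9 libraries. Of the 18 others tested 8 were higher and 3 lower. Nlrc5, the activator of these genes, went from 101, 70 and 80 to 245, 194 and 203 and H2-K1 from 240, 220 and 248 to 530, 579 and 398, with ratios of Th9 replicate 3 to 1 of 0.829 and 0.751. H2-T23 (log2 fold change 1.01) had a ratio of 0.982 and B2m (0.86) of 0.917. These are ratios of whole values, Th0 level included, so they do not place the rises of these genes outside the marker range. Related class I genes can share reads, and T cells express them too. Of 21 interferon-stimulated genes 5 were higher and 3 lower, with a median of -0.04 that was 0.06 after scaling to equal totals. Only 1 was lower when replicate 2 or 3 of Th0, or replicate 1 or 2 of Th9, was left out. Of the 5, 2 passed the filter only through the Th9 libraries, and of the 19 others 3 were higher and 3 lower. Those shares are near the 13.4% and 11.9% of all genes, so the counts say nothing particular about this list.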

How the data were processed

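RNA-seq libraries of LLC1 cells cultured with Th0 or Th9 cells were analysed from the table that holds these 6 libraries. Its values are scores as deposited: the authors divided read counts per gene by 1 factor per library and rounded the result, per the labels' file description and the values themselves, so no count test was used. STAR 2.4.0a, featureCounts 1.4.5-p1, Subread and DESeq2 1.62 and the build mm10 (GRCm38) are named in the submitters' processing notes, without roles. Whether counting used strand is not given in the sources used here, so antisense and overlapping genes, and near-identical copies, may share reads.

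Genes with a mean of at least 10 were fitted on log2(value + 1) with limma-trend (limma 3.58.1, R 4.3.3) and Benjamini-Hochberg adjustment. A fold change on this scale understates the change of low genes. The fit was also run on simulated counts with the same spread for all genes. These held neither a library that stands apart nor added T cell RNA, so the run does not test the fit under those conditions. The members, gene lists and tests were chosen with earlier results of these data known. Genes named by rule are the 25 largest changes per direction with a mean of at least 50 and no overlap. The 20 largest with a Th0 mean of at least 100 were picked under the same conditions. Members of the lists are named as well. For genes picked by these rules a lack of overlap was fixed by the choice. The share of all genes without overlap was not counted. Exon lengths came from GENCODE M21 and promoters from RefSeq (GRCm38.p6). With 3 libraries per group, an exact permutation test of 1 value cannot go below p = 0.1. Alternatives were other filters, pseudocounts, scalings, array weights, a replicate block, a minimum fold change and leaving out each library.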

Additional observations from a re-analysis of the deposited data

How the results depend on the processing

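Of the genes named, 125 of the 128 called kept their call in each of the 14 alternatives that tested them, the minimum fold change aside, and none changed direction. The exceptions were Bub1, Tcf4 and C1ra. Of the 19 named genes that were tested and not called, 6 were called in at least 1 alternative: Plau, Cdh2, Fn1 and Vim lower, and Rela and Cx3cl1 higher. Array weights gave 3302 genes higher and 3326 lower, and a test against a minimum log2 fold change of 0.5 gave 383 and 127. Scaling to the same total per library gave 795 lower genes. Leaving out 1 library gave 1042 to 2573 higher and 847 to 2747 lower genes, and a 9.47-fold to 14.4-fold T cell level. The genes rising more per kb than Cd3g numbered 188 to 341 over all alternatives. With a replicate block 2114 genes were higher and 1962 lower. Deviations of same-numbered libraries correlated at 0.199, -0.0161 and 0.241, and Th0 replicate 2 and Th9 replicate 2 did not correlate best with their own number, so the numbers were not taken to pair the libraries. Low counts limit genes near the minimum mean of 10. The causes of these differences were not tested.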

Other observations

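Of 20 tested p53 targets 11 were higher and 2 lower, against 13.4% and 11.9% of all genes. Of the 11, 1 passed the filter only through the Th9 libraries, and of the 19 others tested 10 were higher. Bbc3, the death protein PUMA, was at 253, 217 and 233 with Th0 cells and at 442, 392 and 391 with Th9 cells (log2 fold change 0.80). Gadd45a, a stress-response gene that is not on that list, was at 335, 353 and 312 against 955, 1124 and 983 (1.61). The groups did not overlap in either gene, which for Gadd45a was a condition of its choice. Over the alternatives 8 to 13 of the p53 targets were higher and 1 to 4 lower, with 1 lower when replicate 2 or 3 of Th0, or replicate 1 or 2 of Th9, was left out.

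Plxna4, a semaphorin receptor, was at 139, 176 and 134 against 704, 650 and 686 (2.19). Tcf7, a transcription factor of T cells, was at 117, 110 and 118 against 434, 392 and 318 (1.71), with a ratio of Th9 replicate 3 to 1 of 0.733. Among 247 KEGG pathways with 15 to 200 tested genes, the share called higher (13.4% over all genes) was highest in autoimmune thyroid disease (8 of 15) and type I diabetes mellitus (9 of 17). Primary immunodeficiency (13 of 25), cytokine-cytokine receptor interaction (46 of 98) and T cell receptor signalling (40 of 87) followed. How many genes these pathways share was not examined. Members with a Th0 mean under 10 passed the filter only through the Th9 libraries and had to be higher with Th9 cells. How many of these each pathway held was not counted, so these shares are no support. The share called lower (11.9% over all genes) was highest in mismatch repair (8 of 22), ECM-receptor interaction (18 of 51) and DNA replication (12 of 35). Protein digestion and absorption (13 of 39) and gastric acid secretion (11 of 36) followed. How many members had a Th9 mean under 10, and so had to be lower, was not counted either.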
